A study of Mus musculus with 2 samples.

Results

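Natural killer cells read the surface of other cells through a balanced set of activating and inhibitory receptors, and 10 genes of that set were followed here: Klra4, Klra7, Klra8, Klra9, Klrb1c, Klrc1, Klrd1, Klre1, Klrk1 and Ncr1. They were chosen by name, with earlier results of these data known, among the 20140 genes of the tables, and all 10 had a row. Their levels were read in the natural killer-like cluster (cluster 1) and the T cell-like cluster (cluster 2) of single-cell RNA from mouse salivary gland, beside the other clusters. One library came from ligated and 1 from mock-operated glands.

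Both groups were female C57BL6/J mice of 14 weeks. In the ligated group the main duct that drains the submandibular and sublingual glands was closed with a clip, and tissue was taken 14 days later. In the mock group the ducts were located but not clipped. Each library was made from 2 glands, and beads against EpCAM and Ter119 plus a dead cell removal step took out most epithelial, red and dying cells before 10X Genomics capture, so shares of cells are shares of what these steps left. With 1 library per group there is no replicate check of any difference, and no test was possible.

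The C-type lectin-like receptors among these genes are encoded together in the natural killer gene complex. The Ly49 receptors (Klra genes) bind class I major histocompatibility molecules, and the CD94 (Klrd1) and NKG2A (Klrc1) pair binds the non-classical class I molecule Qa-1. Inhibitory members carry a cytoplasmic tail motif that recruits phosphatases, while activating members signal through adaptor proteins such as DAP12 (Tyrobp) and DAP10 (Hcst). Cytotoxic and innate-like T cells can carry several of the same receptors, and the salivary gland is known for natural killer cells with features of tissue residency.

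On mouse build GRCm38, 9 of the 10 genes lay within 1455 kb of chromosome 6 (chr6:128778485-130233322), and the 4 Klra genes within 190 kb of it (chr6:130043731-130233322). Ncr1 stood apart on chromosome 7 (chr7:4337724-4345164). All 10 are protein-coding in GENCODE M21. RefSeq promoters of build GRCm38.p6 matched 9 of the 10 genes, all but Klrd1. The 250 bases before the start of Klra4 (chr6:130067272-130067521, minus strand) and of Klra8 (chr6:130129899-130130148, minus strand) are shown because they are the most alike of the member pairs and because these genes had the lowest T cell-like level relative to the natural killer-like level in both libraries. Capitals mark the 38 bases at which each differs from the other.
Klra4: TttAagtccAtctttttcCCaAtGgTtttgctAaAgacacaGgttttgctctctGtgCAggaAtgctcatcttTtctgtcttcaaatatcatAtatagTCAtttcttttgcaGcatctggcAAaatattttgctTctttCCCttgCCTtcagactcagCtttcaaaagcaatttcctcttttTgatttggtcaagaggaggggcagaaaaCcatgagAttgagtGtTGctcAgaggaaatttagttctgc
Klra8: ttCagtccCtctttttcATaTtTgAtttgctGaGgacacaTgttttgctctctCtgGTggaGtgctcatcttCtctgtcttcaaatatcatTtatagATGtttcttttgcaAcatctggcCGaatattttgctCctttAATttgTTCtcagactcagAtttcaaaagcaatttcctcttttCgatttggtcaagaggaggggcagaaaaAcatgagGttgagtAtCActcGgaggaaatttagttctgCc
Identity between them was 84.5%. Over all 6 pairs of Klra promoters it ran from 44.2% to 84.5%, with Klra7 at 74.0% to Klra4 and 74.7% to Klra8, and Klra9 at 44.2% to 47.8% to the others. The 30 remaining pairs of members ran from 41.3% to 50.3%.

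The next 3 promoters are shown because they hold the Runx motif, which reads TGTGGT on one strand and ACCACA on the other, in capitals. They belong to Ncr1 (chr7:4337465-4337714, plus strand), Klrk1 (chr6:129623865-129624114, minus strand) and Klrb1c (chr6:128788642-128788891, minus strand).
Ncr1: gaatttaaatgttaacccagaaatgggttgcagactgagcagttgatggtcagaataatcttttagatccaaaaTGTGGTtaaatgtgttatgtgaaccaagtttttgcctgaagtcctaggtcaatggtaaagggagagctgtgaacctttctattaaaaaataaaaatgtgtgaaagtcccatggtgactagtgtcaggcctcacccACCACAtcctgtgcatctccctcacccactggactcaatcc
Klrk1: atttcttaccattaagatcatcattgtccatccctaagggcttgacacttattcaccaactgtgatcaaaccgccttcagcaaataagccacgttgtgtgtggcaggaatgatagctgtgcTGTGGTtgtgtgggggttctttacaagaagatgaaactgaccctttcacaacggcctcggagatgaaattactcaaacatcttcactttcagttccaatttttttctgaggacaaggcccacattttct
Klrb1c: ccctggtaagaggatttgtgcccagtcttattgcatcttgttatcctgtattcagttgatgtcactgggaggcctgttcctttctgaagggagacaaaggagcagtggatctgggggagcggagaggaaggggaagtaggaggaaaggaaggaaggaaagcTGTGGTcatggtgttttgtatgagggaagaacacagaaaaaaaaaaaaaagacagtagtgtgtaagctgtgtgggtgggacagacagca
Ncr1 holds 2 matches, 176 and 41 bases before the start, Klrk1 has a match at 129 bases and Klrb1c at 89. On both strands, 5 of the 9 promoters held this motif (Klrb1c, Klrc1, Klre1, Klrk1 and Ncr1) and none of the 4 Klra promoters did, against 14.0% of all 32851 promoters. The Ets motif AGGAAG was in 1 of 9 (Klrb1c) against 29.5%, and the T-box motif GTGTGA in 1 of 9 (Ncr1) against 12.3%. Matches of different motifs were counted separately and may overlap. The 3 motifs were chosen after the sequences had been seen, so the comparison with all promoters is a description. Members entered it with 1 start each, the background with every listed start. The windows of Klrb1c and Klre1 lay inside their GENCODE M21 genes (chr6:128778485-128789215 and chr6:129577905-129585827). Their matches are therefore before the RefSeq start but within the gene as GENCODE M21 lists it. A match describes letters in this window, and binding was not measured.

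Values are the mean over the cells of a cluster of each cell's UMIs of the gene per 10000 UMIs of that cell, where a UMI is a tag that marks one captured RNA molecule. Cell numbers were recovered from the cluster means, since the tables list none. The natural killer-like cluster held 3353 ligated cells, 29.4% of that library (exact 95% binomial interval 28.56% to 30.24%), and 679 mock cells, 16.17% (15.07% to 17.32%). The T cell-like cluster held 1393 ligated cells, 12.21% (11.62% to 12.83%), and 155 mock cells, 3.69% (3.14% to 4.31%). These intervals cover counting error only. The largest cluster of the mock library, endothelial-like cluster 0, held 56.28% of mock and 25.85% of ligated cells. Outside it, the natural killer-like share was 39.64% ligated and 36.98% mock, and the T cell-like share 16.47% and 8.44%.

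The labels held against their markers with limits. In the natural killer-like cluster 10 of 11 natural killer markers reached 0.5 per 10000 in both libraries and 3 of 11 T cell markers did, summing to 6.73 mock and 7.01 ligated with Trbc1 the highest (2.88 and 2.53), while Cd3e stood at 0.0139 and 0.144. Of 4 markers of type 2 innate lymphoid cells, 1 reached 0.5 there, Gata3 (1.15 mock, 0.662 ligated). Other innate lymphoid cells were not told apart from natural killer cells in this cluster. In the T cell-like cluster 10 of 11 T cell markers reached 0.5 (summed 51.7 mock, 69.7 ligated). So did 8 of 11 natural killer markers in mock and 9 of 11 in ligated (summed 42.3 and 55.3). The T cell-like cluster is therefore described by its leading genes as T cells with natural killer transcripts, and whether single cells held both was not tested, since only cluster means were used. Estimated UMIs behind a member's value ran from 360 (Klrc1) to 4722 (Klrd1) in mock natural killer-like cells and from 82 (Klra8) to 399 (Klrd1) in mock T cell-like cells.

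**Figure D1:**
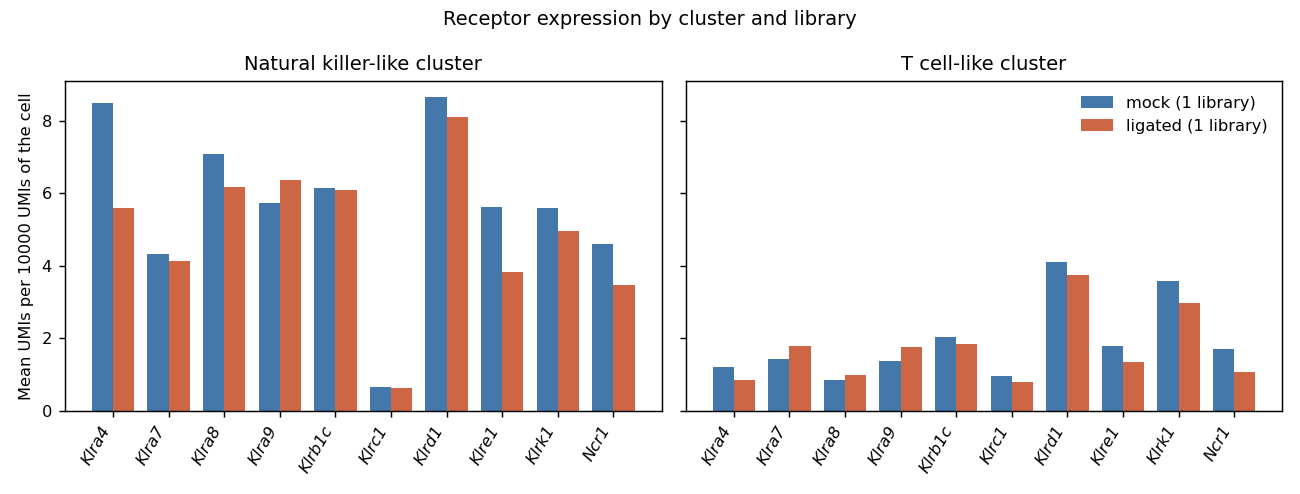
Level of each receptor gene (mean UMIs per 10000 per cell) in the natural killer-like and T cell-like clusters of the mock and ligated libraries. There is 1 bar per gene and library, without error bars because each group is 1 library. Klrc1 is the member whose T cell-like value exceeds its natural killer-like value in both libraries.

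In the natural killer-like cluster all 10 receptor genes were present in both libraries and none differed by 2-fold. To be called by size, a gene had to reach 0.5 in the library where it was higher, and the log2 ratio of ligated to mock, with 0.1 added to each, had to be 1 or more in either direction. By this size rule 0 of the 10 members were past it, against 4.56% of the 2896 genes that reached 0.5 there, or 2.12% when genes listed in 1 library only were left out. Of the 10 members, 9 were lower and 1 (Klra9) higher in the ligated library, with a median of -0.13 over the members and -0.002 over all genes. The 10 levels summed to 56.8 in mock and 49.3 in ligated cells.

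Among the activating Ly49 receptors, which signal through DAP12, Klra4 (Ly49D) stood at 8.48 in mock and 5.58 in ligated natural killer-like cells. This log2 difference of -0.59 was the farthest from 0 of the 10. Klra8 (Ly49H), which recognises a cytomegalovirus protein, stood at 7.09 and 6.16, a log2 difference of -0.20. Klra4 made up 14.9% of the summed level of the 10 genes in mock and 11.3% in ligated cells, while Klra8 made up 12.5% in both.

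Of the inhibitory Ly49 receptors, Klra7 (Ly49G) stood at 4.31 in mock and 4.12 in ligated cells (log2 -0.06). Klra9 (Ly49I) stood at 5.72 and 6.37 (log2 0.15), and its share of the summed level was 10.1% and 12.9%. The 4 Ly49 genes thus ranged from -0.59 to 0.15, activating Klra4 and Klra8 below 0 and the inhibitory pair on either side of it.

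Klrd1 (CD94), the shared chain of the CD94 and NKG2 receptors, stood at 8.66 mock and 8.10 ligated (log2 -0.10). Its inhibitory partner Klrc1 (NKG2A) stood at 0.660 and 0.640 (log2 -0.04). Klrk1 (NKG2D), an activating receptor for stress-induced ligands that pairs with DAP10, stood at 5.58 and 4.94 (log2 -0.17). All 3 were within 0.17 of 0.

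Klrb1c (NK1.1), the marker used to identify natural killer cells in C57BL/6 mice, stood at 6.15 mock and 6.09 ligated (log2 -0.01), the smallest difference of the 10. Ncr1 (NKp46), an activating receptor of natural killer and other innate lymphoid cells, stood at 4.59 and 3.46 (log2 -0.40). Klre1, which forms receptors with other lectin-like chains, stood at 5.61 and 3.83 (log2 -0.54), and its share of the summed level was 9.86% in mock and 7.78% in ligated cells.

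**Figure D2:**
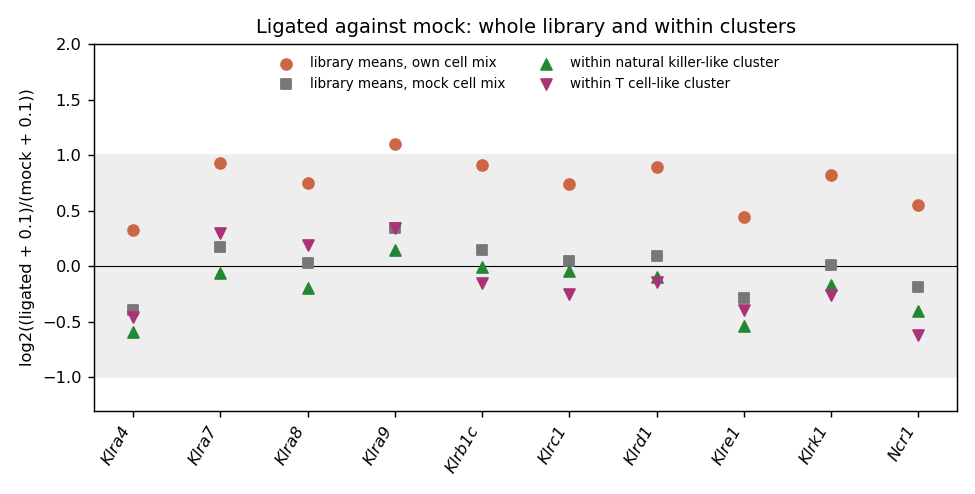
Log2 ratio of ligated to mock level (0.1 added to each) for each receptor gene within clusters and in library means. The clusters are the natural killer-like and T cell-like ones. Library means are shown with each library's own cell mix and with the mock cell mix. Shading spans the size rule of 1 in either direction. Klra9 in library means with their own cell mix (1.10) lies outside it. No point within the clusters does. There, Klra4 in natural killer-like cells (-0.59) and Ncr1 in T cell-like cells (-0.62) lie farthest from 0.

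In the T cell-like cluster the same genes were also present in both libraries, at lower levels except for Klrc1, and 0 of 10 were past the size rule. The background there was 5.34% of 2958 genes, or 3.01% without the genes listed in 1 library only. Of the 10, 7 were lower and 3 higher in the ligated library, with a median of -0.20 against 0.018 over all genes. The 10 levels summed to 19.0 in mock and 17.1 in ligated cells.

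Klra7 stood at 1.43 mock and 1.78 ligated (log2 0.30), Klra8 at 0.840 and 0.976 (log2 0.19), and Klra9 at 1.37 and 1.76 (log2 0.34). These 3 Ly49 genes were the members with a higher ligated value, although Klra8 went to -0.03 after subtraction of stray RNA. The fourth, Klra4, stood at 1.21 and 0.853 (log2 -0.46).

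Klrd1 stood at 4.11 mock and 3.73 ligated (log2 -0.14), Klrc1 at 0.962 and 0.790 (log2 -0.25) and Klrk1 at 3.58 and 2.97 (log2 -0.26). Klrb1c stood at 2.04 and 1.84 (log2 -0.15), and Klre1 at 1.79 and 1.34 (log2 -0.39). Ncr1 stood at 1.70 and 1.07, and its log2 difference of -0.62 was the farthest from 0 in either of the clusters. T cell markers in this cluster differed between the libraries too. Cd8b1 stood at 2.97 mock and 7.14 ligated, and Cd8a at 1.91 and 4.23. The 4 gamma delta T cell genes did not move one way: Trdc (2.37, 0.973), Tcrg-C1 (0.753, 0.482) and Cd163l1 (0.540, 0.135) were lower in ligated and Tcrg-C2 (0.349, 1.08) was higher. The part of these differences in the receptor values was not tested.

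The T cell-like level, as a percentage of the natural killer-like level of the same gene and library, separated the receptors. Klrc1 was at 146% in mock and 124% in ligated cells, the 1 member above 100%. Next came Klrk1 at 64.1% and 60.1%, and Klrd1 at 47.5% and 46.1%. Klra8 was at 11.9% and 15.8%, and Klra4 at 14.3% and 15.3%, the lowest of the 10 in both libraries.

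Between these lay Klra7 (33.1% mock, 43.1% ligated), Klrb1c (33.2%, 30.1%), Ncr1 (36.9%, 31.0%), Klre1 (31.8%, 34.8%) and Klra9 (24%, 27.6%). Markers gave a range of the same kind: Styk1 was at 17.5% and 20.2%, Il2rb at 45.3% and 48.7%, Eomes at 24.4% and 48.7% and Nkg7 at 78.8% and 126%. In endothelial-like cluster 0, where these genes are not known to be expressed, the 10 members fell in the narrow range of 1.13% to 1.73% in mock and 2.95% to 3.92% in ligated cells. Every member's T cell-like percentage was above that range. Other clusters varied more: the members ran from 0% to 11.4% in mock and 11.3% to 14.3% in ligated macrophage-like cluster 5. In mural-like cluster 6 they ran from 0% to 0.411% and from 7.42% to 17%. In ligated clusters 8 and 11, Klra4 stood at 20.1% and 20.4% and Klra8 at 50% and 26.4%, above their T cell-like values. In mock these were 3.85% and 11% for Klra4 and 6.74% and 18.7% for Klra8. Those mock values rested on 25 cells in cluster 8 and 22 in cluster 11, so the libraries are not compared there. In mock cluster 8 an estimated 4 UMIs of Klra4 and 6 of Klra8 lay behind them. After subtraction of stray RNA, T cell-like Klra8 stood at 11.3% and 13%. The part of stray RNA was not tested. Doublets of natural killer and T cells were not assessed, and their part was not tested.

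**Figure D3:**
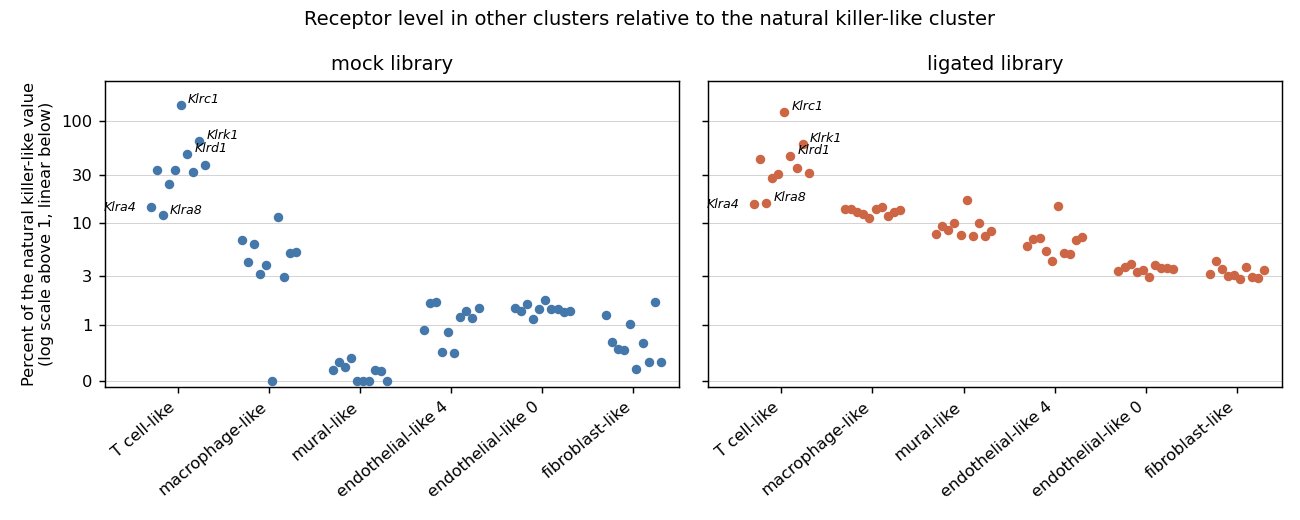
Level of each receptor gene in 6 clusters as a percentage of its level in the natural killer-like cluster of the same library (log scale above 1, linear below), 1 point per gene. The members spread from 11.9% to 146% in mock T cell-like cells and sit within 1.13% to 1.73% in mock endothelial-like cluster 0.

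Across clusters, 9 of the 10 genes were highest in the natural killer-like cluster in both libraries, and Klrc1 was highest in the T cell-like cluster in both. Because clusters were built from the expression of all genes, this order is a description. Summed over cells, the natural killer-like cluster held between 70.6% (Klrc1) and 90.3% (Klra4) of each gene's expression in mock, and between 58.9% (Klrc1) and 84.6% (Klra4) in ligated. The T cell-like cluster held 23.5% of Klrc1 in mock and 30.2% in ligated, against 12% and 18% of Klrk1.

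Besides these, 7 clusters had 50 or more cells per library, and all 10 members were higher in the ligated library in every one, at low levels. Some mock values rested on few molecules. Estimated mock UMIs per member ran from 0 to 2 in cluster 6, 0 to 4 in cluster 7 and 0 to 2 in cluster 10. Klrc1 in cluster 7 stood at 0 mock and 0.00218 ligated, with 0 estimated UMIs in each. The estimated median depth in cluster 7 was 982 UMIs per ligated and 1076 per mock cell. In clusters 0, 3 and 4 no member reached 0.5, so none could be called. Of the genes that did reach it there, 3.92%, 4.47% and 3.29% were past the rule and higher. In macrophage-like cluster 5 the 10 genes summed to 3.29 mock and 6.40 ligated, and in mural-like cluster 6 to 0.0934 and 4.21. In all, 12 pairs of member and cluster were past the size rule, all higher in ligated. In cluster 5 these were Klra7, Klra9 and Klrb1c, of 7 members that reached 0.5 (background 4.15% of genes higher). In cluster 6 they were Klra8, Klra9 and Klrd1, of 3 that reached it (4.92%). In ductal-like cluster 7 they were Klra8, Klra9, Klrb1c and Klrd1, of 4 (14.8%). In erythroid-like cluster 10 they were Klra8 and Klre1, of 2 (23%). In clusters 6, 7 and 10 members reached 0.5 in the ligated library only, so a call there could only be higher in ligated. The background shares include genes listed in 1 library only. In mural-like cells Klra9 stood at 0.0235 mock and 0.643 ligated, and Klrd1 was listed at 0 in mock and at 0.601 in ligated. Stray RNA, the level of markers of other cell types as a percentage of their library mean, was 18.6% in ligated and 8.43% in mock mural-like cells, 17.6% and 7.63% in cluster 5, 22.2% and 8.04% in cluster 7, and 7.25% and 0.875% in cluster 10. After it was subtracted, 0 of these 12 pairs were past the rule, because none reached 0.5, while 7 of the 12 kept a log2 difference of 1 or more. In cluster 10 Klra8 went from 2.55 to 2.23 and Klre1 from 2.37 to 2.22, and their ligated values from 0.528 to 0.368 and from 0.518 to 0.414.

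Averaged over all cells of a library, all 10 members were higher in ligated. Klra9 stood at 1.04 mock and 2.33 ligated (log2 1.10), the 1 member past the size rule, against 6.38% of 3823 genes past it and higher. Klra4 stood at 1.52 and 1.94 (log2 0.33), and the median of the 10 was 0.78, against -0.067 over all genes. The 6.38% includes genes listed in 1 library only. When the ligated cluster values were weighted by the mock library's cell mix, 7 members were above 0 and 3 below (Klra4, Klre1 and Ncr1), with a median of 0.04. Of the 10, 0 were past the rule, against a background of 5.34%, or 3.18% without the genes listed in 1 library only. The share of natural killer-like cells differed in the same direction as the library averages. In a share, more such cells and fewer of other types cannot be told apart.

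The other genes of the receptor pathway were read from lists. Of the adaptors and proximal signalling genes, 15 reached 0.5 in the natural killer-like cluster and 0 were past the size rule. Fcer1g stood at 28.1 mock and 36.2 ligated, Tyrobp (DAP12) at 24.2 and 33.4, and Hcst (DAP10) at 5.70 and 6.31. The median of this list was 0.08, against -0.13 for the 10 receptors and -0.002 for all genes.

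Of 16 other Ly49 and Klr genes with a row, 7 reached 0.5 in natural killer-like cells, and 0 were past the rule. Klra3, an inhibitory Ly49, stood at 2.08 mock and 2.57 ligated, Klri2 at 2.18 and 1.77, and Klrc2 (NKG2C), the activating partner of CD94, at 2.03 and 1.60. In T cell-like cells 4 reached 0.5 and 1 was past the rule, Klra3 at 0.225 and 0.655 (log2 1.21). Klra1 resembled Klrc1 in having the higher value in T cell-like cells in both libraries, at 1.75 mock and 1.48 ligated against 1.02 and 1.28.

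Of 11 other surface receptors at the minimum in natural killer-like cells, 0 were past the rule. Cd7 stood at 11.2 mock and 19.9 ligated (log2 0.82), the early activation marker Cd69 at 3.8 and 6.31 (log2 0.71), and the adhesion receptor Cd226 at 1.65 and 3.12 (log2 0.88). In T cell-like cells Lilrb4a was past it, at 0.25 and 0.688. The receptor 2B4 was listed as Cd244 in mock (1.89) and as Cd244a in ligated (2.46) natural killer-like cells, so the libraries carried different gene names and these values were not compared. Whether the libraries were counted with different gene annotations, and whether that touches the near-identical Klra and Klrc genes, was not tested. No member was listed in 1 library only, against 3150 genes only in ligated and 684 only in mock.

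Among 9 natural killer transcription factors at the minimum 0 were past the rule. Eomes, which sets natural killer identity, stood at 1.71 mock and 0.829 ligated (log2 -0.96), Runx3 at 5.10 and 3.81, Id2 at 12.3 and 10.8, and Ets1 at 2.38 and 2.40. Tcf7, a factor of naive and memory T cells, was the 1 of 8 past it in T cell-like cells, at 1.01 and 0.396 (log2 -1.16). Of 12 cytotoxic genes and cytokines 1 was past it, the granzyme gene Gzmc at 23.2 and 46.5 (log2 1.00). The chemokine genes Ccl5 (43.8, 79.6) and Xcl1 (17.5, 20.7) were not. In T cell-like cells 3 of 15 were past it and higher: Gzmc at 6.06 and 15.7, Gzmk at 0.336 and 1.35, and Nkg7 at 11.5 and 24.

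Among 8 residency and circulation genes Il7r was past it and lower, at 0.891 and 0.225 (log2 -1.61), while the residency integrins Itga1 (3.63, 4.33) and Itgae (1.64, 2.92) and the signalling regulator Rgs1 (12.3 in both) were not. In T cell-like cells Il7r (6.22, 1.63) and Klf2 (3.54, 1.61), a factor of circulating lymphocytes, were the 2 of 9 past it, both lower. Of 6 cytokine receptor genes in natural killer-like cells 0 were past it, with Il2rb at 7.37 and 6.81, Il2rg at 3.28 and 3.85 and Ifngr1 at 2.21 and 1.86. In T cell-like cells Il18r1 was the 1 of 7 past it, at 1.74 and 0.483. Of 8 ligand genes at the minimum 0 were past it in either cluster. In natural killer-like cells the class I genes H2-K1 stood at 26.4 and 29.4 and H2-D1 at 20.5 and 24.3, and B2m, their shared light chain, at 20.4 and 18.

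**Figure D4:**
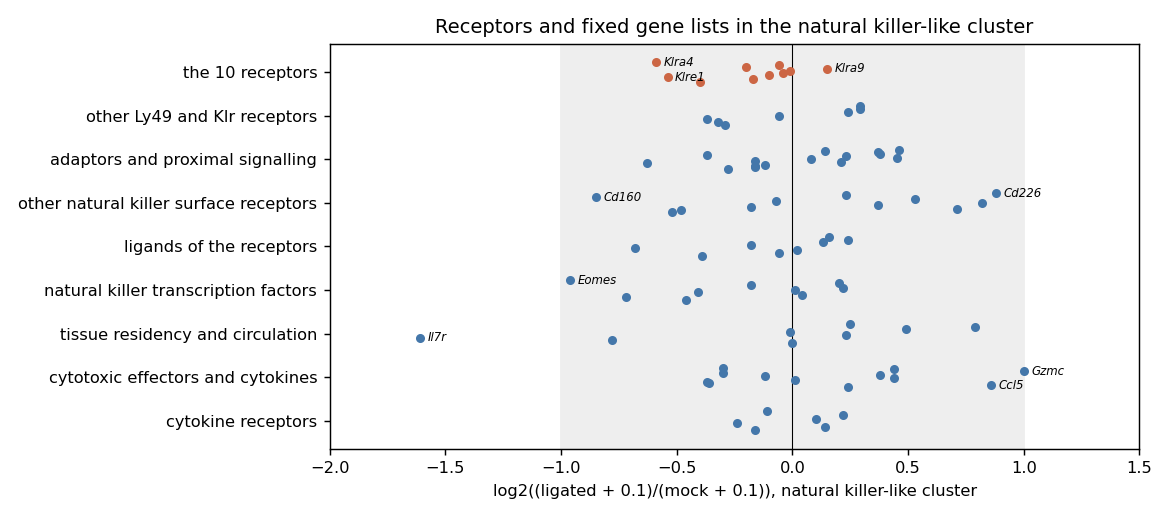
Differences in the natural killer-like cluster for the receptor genes and the pathway lists, as log2 of ligated over mock with 0.1 added to both. Each point is 1 gene that reached 0.5 in the library where it was higher. In natural killer-like cells Gzmc (1.00) and Il7r (-1.61) reach the size rule, and no receptor of the 10 does.

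The genes most like the 10 receptors were ranked by Pearson's r between log2 of their values plus 0.1 and the members' mean on that scale over 24 columns, 12 clusters in each library, among 2617 genes. Il2rb (0.987), the beta chain of the interleukin 2 and 15 receptors, and Txk (0.984), a Tec family kinase, came first, followed by Klrc2 (0.978), Styk1 (0.975) and Cst7 (0.972). The columns share libraries and cells, so r is a description. Klrk1 was most like Cst7 (0.978), Klrb1c most like Txk (0.982) and Ncr1 most like Il2rb (0.978).

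Reads of near-identical genes may be split between them or lost. In the last 300 bases of the longest coding transcript, where 3' reads fall, 80.1% of 50-base windows of Klrc1 were also in Klrc2, 40.6% of those of Klra9 in other genes, mainly Klra3, 20.3% of those of Klra7 in a pseudogene and 19.1% of those of Klra8, mainly in Klra9. The other 6 members shared none. Values of Klrc1, Klra9, Klra7 and Klra8 are uncertain for this reason, including the Klrc1 order across clusters. Klrb1c overlaps exons of Gm44511 on the same strand, which was not analysed here.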

How the data were processed

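The authors deposited 4 tables of cluster means, 2 for all cells and 2 for a subset of cells, each giving 1 value per gene and cluster. The submitters' processing notes name Cell Ranger 6.0.1, Seurat and mm10; filters on cells and the clustering settings are not given in the sources used here. The deposited values are means over cells of UMIs per 10000, read from the values: every column summed to 10000 (largest deviation 5.8e-07). The tables give no cell counts. Cell numbers per cluster (11406 ligated and 4199 mock in all) were recovered in 2 steps. The unsplit value of a cluster is the average of its ligated and mock values weighted by cells (residual at most 1.5e-07), which gives the ratio of cells, and the lowest values, which come from 1 UMI in 1 cell, give the number. Tested on simulated data, it gave the exact cell numbers in 3 of 3 clusters of 18062 genes, all with fewer cells than the natural killer-like cluster. Stray RNA was the median, over markers of other cell types, of a cluster's value as a percentage of the library mean. Depth was estimated from the same low values and leans to deeper cells. The estimated median was 8277 UMIs per ligated and 8032 per mock natural killer-like cell, and 7423 and 6258 per T cell-like cell.

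A difference is log2 of ligated over mock with a pseudocount of 0.1. The size rule needed a higher value of at least 0.5 and a difference of at least 1. Clusters with under 50 cells in a library (8, 9 and 11) were not compared. Clusters were named from marker lists. Members and lists were chosen with earlier results of these data known, and the 3 promoter motifs after the sequences had been seen. The genes named are the 10 members, the first 3 of each list by level, those past the rule, 5 by likeness to the members and 1 each for Klrk1, Klrb1c and Ncr1. Klra1, Cd244, Cd244a, Eomes, H2-T23, Clec2d, Raet1e, Ulbp1 and the markers named were chosen after their values were seen. Gene names changed to dates by a spreadsheet (21) were restored. Positions came from GENCODE M21 and promoters from RefSeq. Alternatives were other pseudocounts, minimums and sizes, subtraction of stray RNA, shares of the receptor total, other cell weights and the omission of genes listed in 1 library. Python 3.11.15, pandas 2.3.3, NumPy 2.4.6, SciPy 1.17.1, Matplotlib 3.10.9 and Biopython 1.88 were used.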

Additional observations from a re-analysis of the deposited data

Results flagged for a closer look

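Klra7 and Klra8 had differences of opposite sign in the natural killer-like and T cell-like clusters. Klra7 had a log2 difference of ligated over mock of 0.30 in T cell-like cells and -0.06 in natural killer-like cells. Klra8 had 0.19 and -0.20. Each value rests on 1 library per group, so the difference between the clusters was not tested. The opposite signs did not hold under every alternative. After subtraction of stray RNA Klra8 was at -0.03 in T cell-like and -0.23 in natural killer-like cells, and as a share of the receptor total Klra7 was at 0.45 and 0.14. Klra8 shares sequence with Klra9 and Klra3, and Klra7 with a pseudogene.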

How the results depend on the processing

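No paired analysis was possible because each group holds 1 library and the labels carry no replicate numbers; leaving a replicate out was not possible for the same reason. In the natural killer-like cluster the median difference of the 10 members was -0.13 and became 0.07 when each gene was taken as a share of the receptor total, with Klra7, Klrb1c, Klrc1, Klrd1 and Klrk1 turning positive (0.14, 0.19, 0.14, 0.11 and 0.03). At a size of 0.5, 2 members were past the rule there (Klra4 and Klre1) and 1 in T cell-like cells (Ncr1), against 0 as reported. In T cell-like cells Klra8 went from 0.19 to -0.03 after subtraction of stray RNA, and Klrd1 from -0.14 to 0.01 as a share of the total.

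The 12 pairs in the other 7 clusters became 0 with a pseudocount of 1, 43 with no minimum, 0 with a minimum of 2 and 0 after subtraction, where none reached the minimum and 7 kept a difference of 1 or more. The median difference of library means, 0.78, was 0.89 with a pseudocount of 0.01, 0.51 with 1, 0.04 at the mock cell mix and 0.37 with equal weight for every cluster. The natural killer-like share of cells was 39.64% ligated and 36.98% mock outside cluster 0, and the T cell-like share 16.47% and 8.44%. The natural killer-like cluster's median share of expression went from 78.4% to 86.6% in ligated and from 87.3% to 89.3% in mock after subtraction. Genes past the rule went from 132 to 60 in natural killer-like and from 158 to 87 in T cell-like cells without genes listed in 1 library only. About 82 UMIs of Klra8 were estimated in the 155 mock T cell-like cells.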

Other observations

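Ligands of the receptors were read across clusters. H2-K1 and H2-D1, classical class I genes, stood in endothelial-like cluster 0 at 18.7 and 20.9 in mock and at 26.4 and 26.3 in ligated cells. In ductal-like cluster 7, H2-K1 stood at 2.40 mock and 14.1 ligated and H2-D1 at 1.40 and 9.16, both past the size rule and higher, where 14.8% of genes were. H2-T23, the Qa-1 heavy chain bound by CD94 and NKG2A, had values of 2.38 mock and 2.69 ligated in cluster 0, and of 1.35 mock and 1.49 ligated in natural killer-like cells. Clec2d, a ligand of the Klrb1 family, stood at 3.96 mock and 2.44 ligated in natural killer-like cells. The NKG2D ligands Raet1e and Ulbp1 were at or under 0.412 in every cluster of both libraries.

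A subset of the cells of the same libraries, labelled by Pdgfr and Gli1, had its own clusters, and 1 of them held receptor transcripts. How its cells were selected is not given in the sources used here. Subset cluster 1 held 435 ligated and 14 mock cells, so it was not compared, and the 10 members ran from 0.481 to 4.30 in its ligated cells. The part of stray RNA and of doublets in these values was not tested. In cluster 8 of all cells, with 264 ligated and 25 mock cells and likewise not compared, Klra8 stood at 3.08 and Klrd1 at 2.92 in ligated cells. Stray RNA in these ligated cells was 125% of the library mean, and Klra8 and Klrd1 were at 139% and 92.1% of theirs. After subtraction Klra8 stood at 0.322 and Klrd1 at 0.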
